A study of Mus musculus with 219 samples.

Results

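Atp10a encodes a P4-ATPase, a membrane pump (flippase) that uses ATP to move phospholipids from the outer to the inner leaflet of the cell membrane. It was selected on its fitted daily swing and its light cycle difference in these same data, so its time course and its light cycle values are given as descriptions, with no test. It is 1 of 55487 gene identifiers in the count tables (ENSMUSG00000025324, named from GENCODE vM21). Per2 (ENSMUSG00000055866), a core clock gene, serves as the reference for phase.

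P4-ATPases keep the lipids of the plasma membrane unevenly spread between its leaflets, and most of them work with a beta subunit of the CDC50 family such as Tmem30a. Scramblases do the reverse and let lipids move both ways. Atp10a is known for moving phosphatidylcholine, and in mouse brain its RNA is known mainly from the endothelial cells of blood vessels. It lies beside Ube3a in the cluster of imprinted genes whose human counterpart is altered in Prader-Willi and Angelman syndromes, the same cluster that holds Snord116, a group of small nucleolar RNAs made from the long transcript Snhg14. Per2 protein holds back the CLOCK and BMAL1 pair that switches Per2 itself on, and Per2 RNA in mouse cortex is known to peak in the night.

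RNA from the left prefrontal cortex of mice was sequenced after depletion of ribosomal RNA, and 218 of the 219 labelled samples were analysed. The time course (the atlas) held 92 libraries of males and females with the genotype WT/WT (Snord116+/+Ctg-/-), kept in home cages on a 12:12 cycle (hours of light and of dark, 12 h each) and taken at about 12 weeks of age at 8 zeitgeber times (ZT, hours after lights on), with 10 to 12 libraries each. The other 126 libraries were all taken at ZT6 from males and females of 4 genotypes, with 3 or 4 libraries in each of 32 groups. Beside WT/WT these were HET/WT, heterozygous for Snord116 and written Snord116+/-Ctg-/-, then WT/TG, which carries Ctg and is written Snord116+/+Ctg+/-, and HET/TG, which carries both and is written Snord116+/-Ctg+/-. These mice entered light-controlled housing at 22°C at about 8 weeks, had 7 days to settle, and were kept on 12:12 or on 11:11, in which light and dark last 11 h each. In the running wheel set (63 libraries), mice had 15 days on the light cycle and then 7 days with wheels, and were collected under L:D. In the indirect calorimetry set (63 libraries), mice moved to the chambers after 22 days and were collected under D:D, so chamber, wheel and light at collection cannot be told apart between the sets. How ZT6 was set for mice on 11:11, and how long the calorimetry mice had been in the dark, is not stated in the labels, so whether the 2 light cycles were compared at the same phase of the clock was not tested. The labels number the libraries as biological replicates. They do not say whether each is 1 animal, what Ctg carries or which parent passed on the altered Snord116 copy.

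Libraries held between 12995491 and 18420258 counts in the atlas, 12737699 and 29856536 in calorimetry, and 13588458 and 24143548 in the wheel set. The cortical marker Slc17a7 was at 857 to 1161 CPM (counts scaled to library size and to the same total in every library) over the atlas and at 570 to 1359 CPM at ZT6. Markers of neighbouring tissue varied widely in both tables: 8 choroid plexus genes summed to between 3.89 and 997 CPM in the atlas and between 3.20 and 2736 CPM at ZT6, and 10 striatal genes to between 195 and 2151 CPM and between 181 and 2107 CPM. Snhg14 was at 20.2 to 69.3 CPM in HET/TG and at 116 to 281 CPM in WT/WT, but the wheel library labelled HET/WT, female, 11:11, replicate 3 had 167.3 CPM, against 20.8 to 54.3 CPM in the other 31 HET/WT libraries. Another wheel library (WT/TG, female, 11:11, replicate 1) held 58.4% of its counts in ribosomal RNA, against a ZT6 median of 11.0%. The Atp10a results with and without these libraries are given with the comparisons they touch.

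In mm10 (GRCm38), Atp10a lies on chromosome 7, plus strand, from 58656166 to 58829420, with 5587 bases of exon over 2 annotated transcripts: Atp10a-201, with 21 exons from 58658246 to 58829420, and Atp10a-202, with 2 exons from 58656166 to 58658878. The counts are per gene and do not separate the transcripts. The gene encloses Gm44936 and Gm44937 on the same strand, which averaged 1.70 and 2.13 counts per ZT6 library against 85 to 688 for Atp10a. No gene annotated on the other strand overlaps it.

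The RefSeq promoter window of Atp10a is shown because E-boxes and D-boxes near start sites are known binding sites of clock factors. It covers chr7:58657952-58658251 of GRCm38.p6 on the plus strand, and capitals mark the 50 bases from the start site onward.

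Atp10a promoter: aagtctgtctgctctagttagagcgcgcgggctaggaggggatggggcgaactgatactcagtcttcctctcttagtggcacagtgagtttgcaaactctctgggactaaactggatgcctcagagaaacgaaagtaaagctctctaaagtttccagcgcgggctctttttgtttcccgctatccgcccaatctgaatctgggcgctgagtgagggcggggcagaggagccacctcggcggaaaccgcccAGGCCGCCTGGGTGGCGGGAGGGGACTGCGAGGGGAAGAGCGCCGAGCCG

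The window is rich in G and C (59.3%, against a median of 52.7% over 32851 promoter windows) and holds 20 CpG pairs. Read on both strands, it has none of the letters of an E-box (CACGTG, found in 7.15% of the windows), of a D-box (TTATGTAA, in 0.938%, or TTACGTAA, in 0.119%) or of a cyclic AMP response element (TGACGTCA, in 1.79%). It has 3 GC boxes (GGGCGG, in 35.7% of the windows) and 1 CCAAT box (CCAAT, in 37.4%), which shares bases with a GC box. These are matches of letters in this window only.

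Over the day in wild-type cortex, Atp10a was low in the middle of the light phase and high from the end of the light phase through most of the dark phase. At ZT6 the 12 libraries ran from 7.45 through a median of 9.31 to 11.6 CPM (mean 9.21 ± 1.36 CPM, SD), and at ZT3 from 7.00 through 9.19 to 12.5 CPM (9.26 ± 1.86). At ZT12 they ran from 11.2 through 12.995 to 15.5 CPM (13.01 ± 1.32), and at ZT15 from 10.9 through 13.1 to 15.2 CPM (13.1 ± 1.32). All 34 libraries of ZT12, ZT15 and ZT18 lay above the median of the 24 libraries of ZT3 and ZT6, and 22 of the 34 lay above their maximum. The groups overlapped, since 5 of the 24 low-phase libraries reached the range of the high phase.

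Over both sexes together, the 3 high times formed a plateau. At ZT18 the 10 libraries ran from 11.3 through 12.9 to 15.5 CPM (13.03 ± 1.37). The level was lower again at ZT21 (10 libraries, 9.47 through 10.8 to 12.7 CPM, mean 11.0 ± 0.991), and stood at 12.0 ± 1.19 CPM at ZT0 (10.4 through 12.2 to 13.8, n = 12). ZT9 lay between trough and plateau, at 11.5 ± 1.29 CPM (8.91 through 11.1 to 14.003, n = 12). From lowest to highest the order of the means was ZT6, ZT3, ZT21, ZT9, ZT0, ZT12, ZT18 and ZT15, and none of the 7 steps between neighbours in this order exceeded the larger of the 2 SDs. An Atp10a level rested on 105 to 274 counts per atlas library, for which counting error alone gives an SD of 9.76% to 6.04%.

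**Figure D1:**
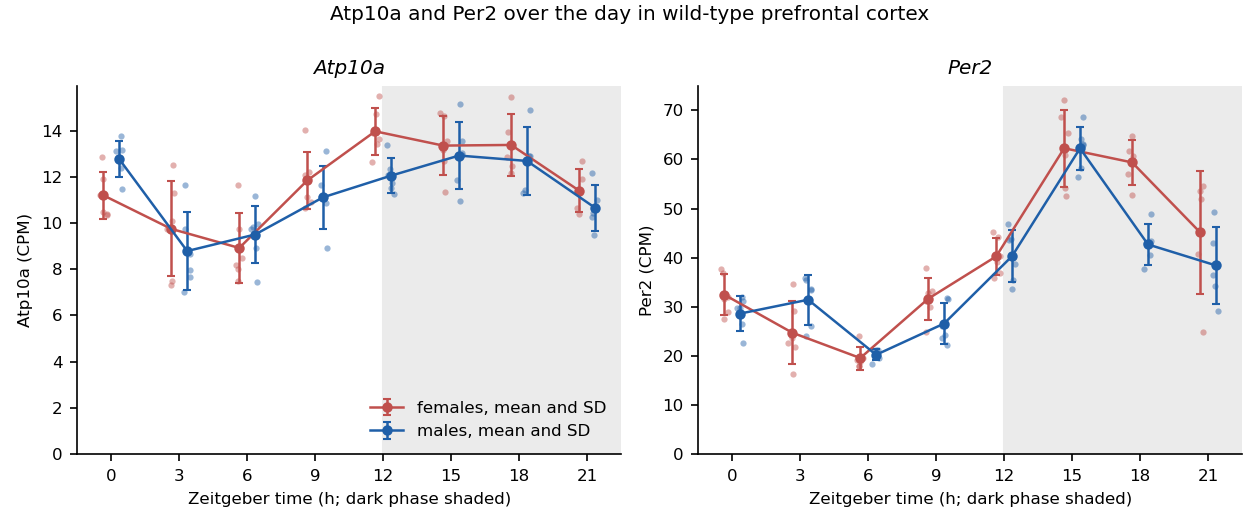
Atp10a (left) and Per2 (right) in CPM against zeitgeber time in the 92 wild-type libraries. Small points are libraries, large points and bars are the mean and SD of 5 or 6 libraries of one sex, and the dark phase is shaded. Atp10a sits near 9 CPM at ZT3 and ZT6 and near 13 CPM from ZT12 to ZT18. Per2 has its highest mean at ZT15 in both sexes, but in females it stays near that level at ZT18.

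A 24 h cosine fitted to the atlas placed the Atp10a peak at ZT 15.96 (95% interval 15.04 to 16.9) with a peak-to-trough fold of 1.39 (1.28 to 1.504). Per2 peaked at ZT 16.8 (16.3 to 17.2), 0.81 h later, with overlapping intervals. The swing of Per2 was larger, at 2.53-fold (2.26 to 2.83). Of 17193 genes tested, 7117 (41.4%) were called rhythmic. Among those, 13.3% had a larger peak-to-trough value than Atp10a and 13.7% peaked within 2 h of it. The swing of Atp10a was 0.47 ± 0.06 (SE) on the log2 scale, against a median of 0.19 over the called genes.

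The shapes of the curves differed in the values. Per2 was lowest at ZT6, from 17.9 through 19.5 to 24.1 CPM, and highest at ZT15, from 52.6 through 63.1 to 72.2 CPM, and these libraries did not overlap. Its mean was 40.3 CPM at ZT12 and 62.3 CPM at ZT15, whereas Atp10a already stood at its plateau at ZT12. In females Per2 stayed high from ZT15 (62.3 ± 7.86 CPM) to ZT18 (59.4 ± 4.67). In males it was at 62.3 ± 4.34 CPM at ZT15 and 42.7 ± 4.16 at ZT18. The ratio of ZT12 to ZT6 was 1.41 for Atp10a and 2.03 for Per2, and the ratio of ZT15 to ZT6 was 1.43 and 3.13. A 12 h component added to the 24 h curve, which the choice of the gene did not use, had a peak-to-trough of 0.20 on the log2 scale for Atp10a (adjusted p = 0.0754, edgeR quasi-likelihood, 328 of 17193 genes called, 1.91%). It did not pass the threshold of 0.05, but did with DESeq2 (adjusted p = 0.0458) and in a fit with a term for length slope, the dependence of log2 CPM on gene length in each library that can follow RNA quality (adjusted p = 0.0473). For Per2 the 12 h component was 0.30 (adjusted p = 0.0375, edgeR).

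The curves of females and males did not pass the test of a difference. The fitted peak was at ZT 15.4 (14.4 to 16.5) with a fold of 1.46 in females, and at ZT 16.6 (15.1 to 18.1) with a fold of 1.34 in males. At ZT12 the 6 female libraries ran from 12.6 through 13.8 to 15.5 CPM and the 6 male libraries from 11.2 through 11.9 to 13.4 CPM. At ZT0 the order was the other way, with females from 10.4 through 10.8 to 12.8 CPM and males from 11.5 through 12.9 to 13.8 CPM. Neither the difference between the curves of the sexes (0.19 on the log2 scale, adjusted p = 0.865, edgeR, 13 of 17193 genes called, 0.0756%) nor the mean difference between males and females (-0.05 ± 0.04, 95% interval -0.13 to 0.03, adjusted p = 0.366, 41.1% of genes called) passed the test.

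At ZT6 in the second experiment, the light cycle went with a higher Atp10a level in the calorimetry set and not in the wheel set. In calorimetry the 31 libraries on 11:11 ran from 11.2 through 15.8 to 23.5 CPM (mean 16.3 ± 3.25), and the 32 on 12:12 from 6.34 through 11.0 to 16.9 CPM (11.5 ± 2.47). All 31 libraries on 11:11 lay above the 12:12 median and 10 lay above every 12:12 library, while 15 of the 32 on 12:12 reached the range of 11:11. By sex, 13 of 16 female libraries on 11:11 lay above the female 12:12 median, and 15 of 15 male libraries above the male one. In the wheel set the 32 libraries on 11:11 ran from 9.28 through 14.2 to 17.3 CPM (13.5 ± 2.43) and the 31 on 12:12 from 7.71 through 12.7 to 17.3 CPM (13.04 ± 2.56), and the light cycles overlapped over nearly their whole range. The wheel means of both cycles thus stood between the 2 calorimetry means.

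In the fit, 11:11 minus 12:12 was 0.50 ± 0.07 on the log2 scale in calorimetry (a fold of 1.41, 95% interval 1.28 to 1.56) and 0.05 ± 0.07 in the wheel set (1.04, 0.94 to 1.14). Averaged over the sets it was 0.28 ± 0.05, the value on which the gene was selected. Both sexes showed the difference in calorimetry, females at 0.41 ± 0.10 and males at 0.59 ± 0.10. In the wheel set the values were 0.13 ± 0.10 in females and -0.03 ± 0.10 in males. All 8 pairs of the same genotype and sex had a higher mean on 11:11 in calorimetry, with ratios from 1.06 (WT/WT females) to 1.97 (WT/TG males), and 6 of 8 did in the wheel set, with ratios from 0.91 to 1.24. The ratio in calorimetry WT/TG males rests on 3 libraries on 11:11 and 4 on 12:12.

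**Figure D2:**
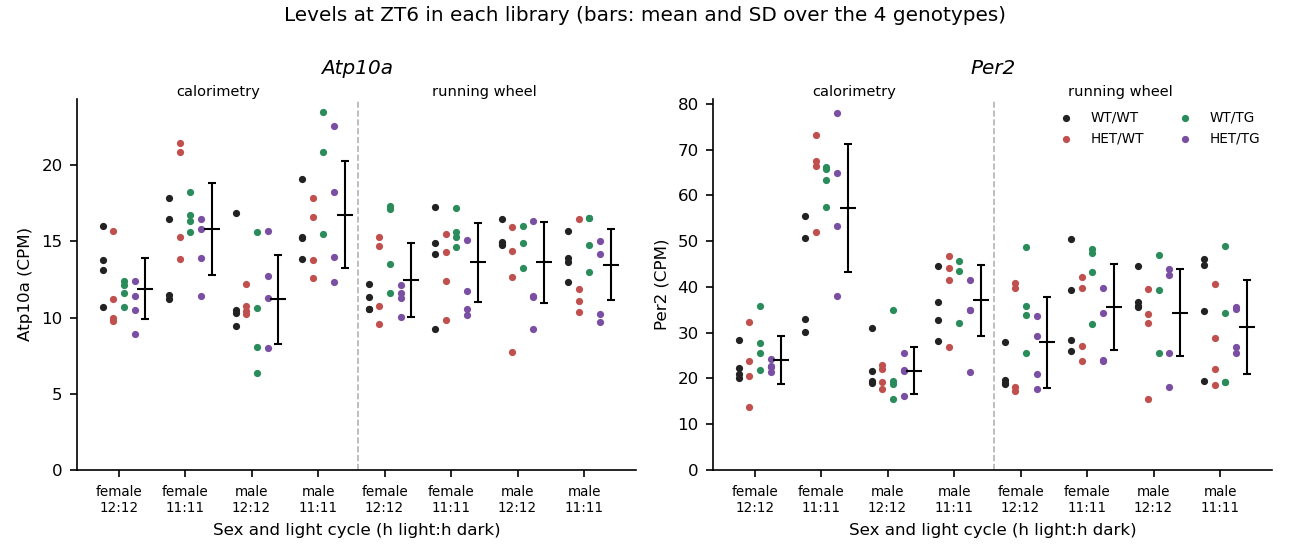
Atp10a (left) and Per2 (right) in CPM at ZT6, by set, sex and light cycle. Each point is a library, coloured by genotype, and black bars give the mean and SD over the genotypes (15 or 16 libraries). In calorimetry the mean on 11:11 stands above the mean on 12:12 in both sexes, though the libraries overlap. In the wheel set the light cycles do not separate.

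The difference between the sets in the light cycle effect, a contrast whose weights are orthogonal to those of the averaged effect that selected the gene, was 0.45 ± 0.10 on the log2 scale for Atp10a (95% interval 0.25 to 0.64, adjusted p = 0.00205, edgeR quasi-likelihood), and 1003 of 18841 genes (5.32%) were called in it. Without the libraries numbered replicate 4 it was 0.40 and missed the threshold (adjusted p = 0.0588). For Per2 the same contrast was 0.90 ± 0.14 (adjusted p = 1.94e-05). Mean length slopes were -0.041 on 11:11 and -0.077 on 12:12 in calorimetry, and 0.061 and 0.058 in the wheel set. With the slope as a covariate, the Atp10a contrast was 0.39 (adjusted p = 0.0224).

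Per2 moved with the light cycle in the same set. In calorimetry it ran from 21.5 through 44.6 to 78.0 CPM on 11:11 and from 13.8 through 21.8 to 35.9 CPM on 12:12, a difference of 1.01 ± 0.10 on the log2 scale. In the wheel set the difference was 0.11 ± 0.10. There the sexes had opposite signs, with females at 0.36 ± 0.14 (95% interval 0.08 to 0.64) and males at -0.15 ± 0.14 (-0.43 to 0.13). The Per2 difference was larger in females (1.24 ± 0.14) than in males (0.78 ± 0.15) in calorimetry, and the contrast of males minus females over both sets was -0.49 ± 0.14 (adjusted p = 0.0251, edgeR, 1044 of 18841 genes called, 5.54%). It missed the threshold without replicate 1, 2 or 4 (adjusted p from 0.0649 to 0.234). For Atp10a that contrast was 0.01 ± 0.10 (95% interval -0.18 to 0.21, adjusted p = 0.976). Whether the genes differ from each other in this contrast was not tested.

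No genotype contrast was called for Atp10a. Over all ZT6 libraries, WT/WT averaged 13.7 ± 2.63 CPM (n = 32), HET/WT 13.3 ± 3.26 (n = 32), WT/TG 14.7 ± 3.47 (n = 30) and HET/TG 12.7 ± 3.06 (n = 32), and the ranges overlapped. On the log2 scale HET/WT minus WT/WT was -0.05 ± 0.07 (95% interval -0.18 to 0.09, adjusted p = 0.945, edgeR), with 8 of 18841 genes called (0.0425%). It was -0.04 (adjusted p = 0.941) without the library labelled HET/WT whose Snhg14 level went against its label, in which Atp10a was at 12.4 CPM. WT/TG minus WT/WT was 0.11 ± 0.07 (-0.03 to 0.25, adjusted p = 1.00, 3 genes called, 0.0159%), and 0.11 without the library rich in ribosomal RNA. HET/TG minus WT/WT was -0.12 ± 0.07 (-0.25 to 0.02, adjusted p = 0.859, 9 genes called, 0.0478%), and HET/TG minus HET/WT was -0.07 ± 0.07 (-0.21 to 0.07, adjusted p = 0.874, 2 genes called, 0.0106%). The first 3 of these contrasts share the WT/WT libraries. Against WT/WT, the intervals leave room for a rise of up to 0.25 in WT/TG and a fall of up to 0.25 in HET/TG. For HET/WT they leave room for a fall of up to 0.18 or a rise of up to 0.09.

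Within each light cycle and set, the highest genotype mean of Atp10a was WT/TG in 3 of 4 cases. On 11:11 it was 18.1 ± 3.02 CPM in calorimetry (n = 7) and 15.4 ± 1.33 in the wheel set (n = 8), and on 12:12 in the wheel set 14.8 ± 2.13 (n = 7). Of these 3 cases, WT/TG led in both sexes only in the wheel set on 11:11. HET/WT led in calorimetry females on 11:11 (17.9 CPM against 16.8 in WT/TG). WT/WT led in wheel males on 12:12 (15.3 against 14.7). On 12:12 in calorimetry WT/TG was instead the lowest, at 10.9 ± 2.81 CPM (n = 8), and WT/WT the highest, at 12.6 ± 2.80 (n = 8). The HET/WT contrast did not pass the test of a difference between light cycles (0.10 ± 0.14, adjusted p = 0.944), sets (0.08 ± 0.14, adjusted p = 1.00) or sexes (-0.20 ± 0.14, adjusted p = 0.942). In these 3 interactions edgeR called 0 genes (0%), with 1331, 812 and 1051 of 18841 at an unadjusted p under 0.05, while DESeq2 called 2, 0 and 0 genes and voom 0 in each.

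The level itself, averaged over light cycles, did not differ between calorimetry and wheel beyond the test (0.05 ± 0.05, 95% interval -0.05 to 0.15, adjusted p = 0.406, edgeR), although 62.2% of genes did. With a length slope term this value was 0.27 (adjusted p = 0.179). Males minus females at ZT6 was 0.03 ± 0.05 (-0.07 to 0.13, adjusted p = 0.598), in a comparison where 58.1% of genes were called. With the slope term the genes called went from 11713 to 4545 between the sets and from 10948 to 2074 between the sexes.

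**Figure D3:**
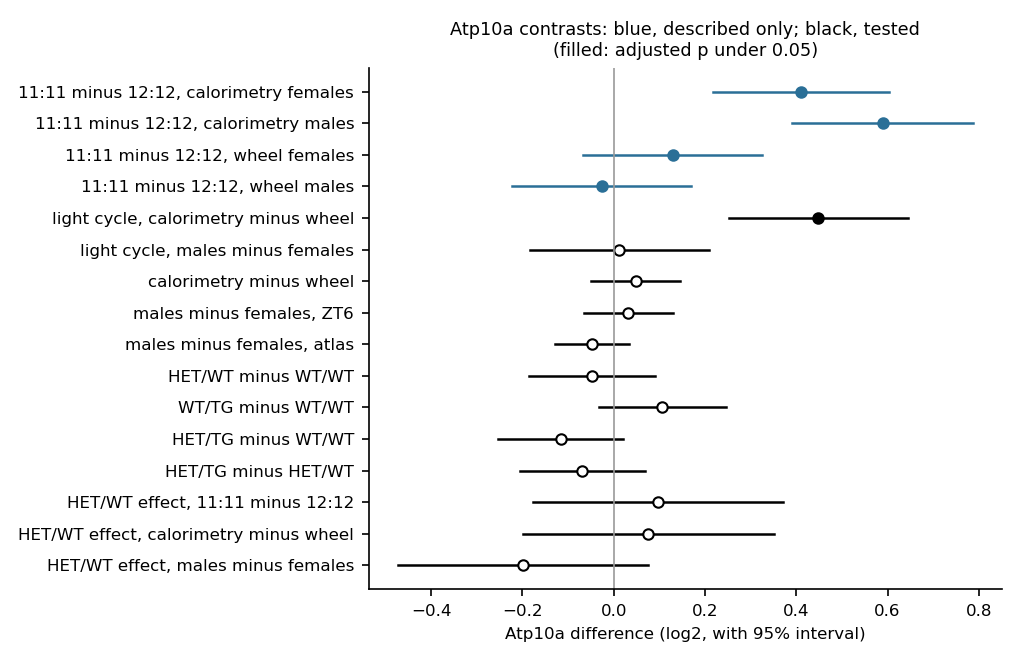
Differences of Atp10a on the log2 scale with 95% intervals. Blue points are the light cycle values by set and sex, whose average selected the gene, shown without a test. Black points are tested contrasts, filled where the adjusted p is under 0.05. The 2 calorimetry intervals and the contrast between the sets (0.45) lie above 0, and the other intervals include 0.

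Among the 15 P4-ATPase genes, Atp10a was a middling one in level. Its swing was the largest of the tested members, but it was selected on that value, so the rank is only a description. Per kilobase of exon it stood at 2.43 ± 0.57 CPM at ZT6, the 8th of 13 measured. Atp9a, a flippase of endosomes and the Golgi, was highest at 62.8 ± 8.46 CPM per kilobase, Atp8a1, an aminophospholipid flippase, followed at 23.2 ± 3.43, and Atp10d and Atp10b, the closest relatives of Atp10a, were at 0.32 ± 0.09 and 0.25 ± 0.08. Tmem30a, the beta subunit, was at 73.2 ± 7.09 CPM per kilobase. Atp8b3 and Atp8b4 did not pass the filter on low counts in either table, and Atp8b5 passed it at ZT6 only.

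In the atlas 6 of the 11 other members tested were called rhythmic (41.4% of all genes), with a median peak-to-trough of 0.09 on the log2 scale over the 11 against 0.14 over all genes. Atp8a2 (0.11, adjusted p = 0.00311, edgeR) and Atp11a (0.11, adjusted p = 0.00823) peaked within 2 h of Atp10a, at ZT 16.8 and ZT 17.4. Atp11a is a flippase of the plasma membrane that moves aminophospholipids. Atp10b peaked in the light phase, at ZT 5.1, with a swing of 0.41 (adjusted p = 0.000973). Atp8b1, Atp11b and Atp9b peaked at ZT 8.3, 8.8 and 12.4. Tmem30a was not called (0.04, adjusted p = 0.266).

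For the light cycle averaged over the sets, 3 of the 12 other members tested were called, 1 higher and 2 lower on 11:11, against 12.6% of all genes (7.49% higher and 5.15% lower). Atp11a was higher on 11:11 by 0.09 ± 0.02 (adjusted p = 0.00214, edgeR), and Atp8b2 and Atp9b were lower at -0.07 ± 0.02 and -0.06 ± 0.02. The median over the 12 was -0.03, against 0.00 over all genes. Within calorimetry 1 of the 12 passed, against 19.6% of all genes (10.4% higher and 9.13% lower): Atp11a, higher at 0.17 ± 0.03 (adjusted p = 1.24e-05). Atp11a was also the 1 of the 12 called in the contrast between the sets (2.74% of all genes were called higher in it and 2.58% lower), at 0.16 ± 0.04 (adjusted p = 0.0138). Tmem30a was at -0.02 ± 0.02 for the light cycle and was not called.

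**Figure D4:**
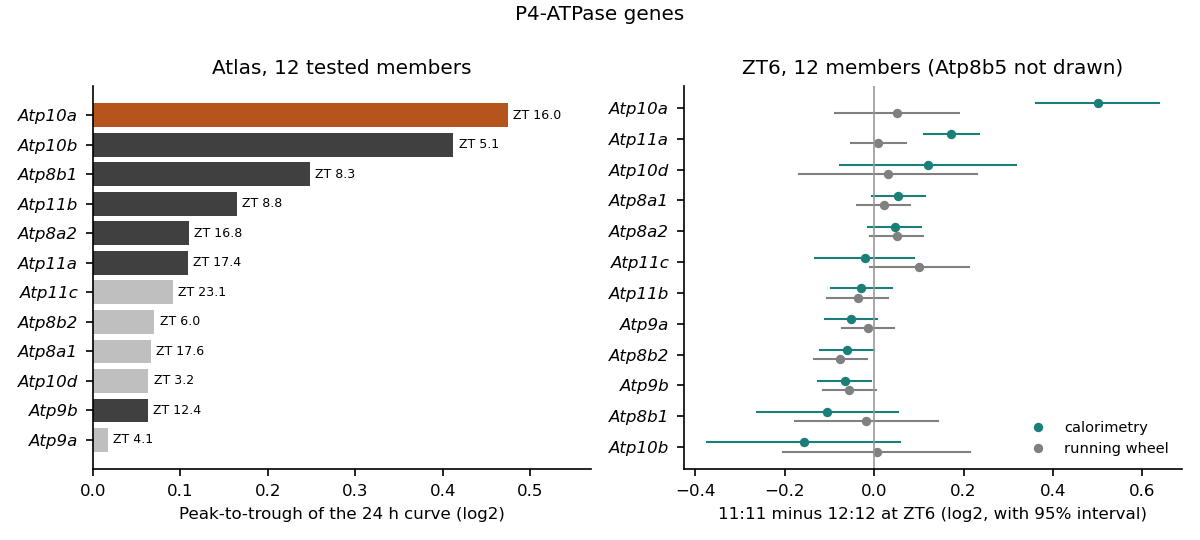
P4-ATPase genes. Left, peak-to-trough of the fitted 24 h curve in the atlas on the log2 scale, with the fitted peak time, Atp10a in orange, other genes called rhythmic in dark grey and genes not called in light grey. Right, 11:11 minus 12:12 at ZT6 on the log2 scale with 95% intervals in calorimetry (green) and wheel (grey) libraries. Atp10a has the largest calorimetry value drawn, 0.50, but was selected on its swing and its light cycle difference. Atp8b5 is not drawn, since its interval runs from -1.23 to 0.15 in calorimetry.

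Of 8 scramblase genes, 2 were called rhythmic (41.4% of all genes): Ano6, a calcium-activated scramblase (0.19, peak at ZT 2.4, adjusted p = 0.00202, edgeR), and Xkr8, a scramblase switched on in dying cells (0.31, peak at ZT 23.4, adjusted p = 0.0101). Neither of these 2 peaked within 2 h of Atp10a, a window that held 13.7% of all called genes. For the light cycle 0 of 8 were called (12.6% of all genes) by edgeR, DESeq2 or voom. At an unadjusted p under 0.05 edgeR had 2 of them, and 1 was called with the length slope term. The lowest p-values there were those of Xkr4 (-0.06 ± 0.03, adjusted p = 0.124) and Plscr3 (-0.09 ± 0.04, adjusted p = 0.136). Xkr4 was lower on 11:11 within calorimetry (-0.14 ± 0.04, adjusted p = 0.00316) and was called in the contrast between the sets (-0.16 ± 0.05, adjusted p = 0.0475).

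No gene listed around Atp10a on chromosome 7 was called for the light cycle. Of 16 listed neighbours 15 were tested, and 0 were called for the light cycle (12.6% of all genes), its contrast between the sets (5.32%), or the light cycle within calorimetry (19.6%), by edgeR, DESeq2 or voom. At an unadjusted p under 0.05 edgeR had 1, 0 and 2 of them, and with the length slope term 1 was called within calorimetry. Ube3a, a ubiquitin ligase that starts 399 kb beyond the end of Atp10a, was at 0.04 ± 0.02 (adjusted p = 0.199, edgeR), and Cyfip1, a regulator of actin and translation, had the smallest p-value (0.04 ± 0.02, adjusted p = 0.102). In calorimetry males alone 1 was called, Cyfip1, higher at 0.10 ± 0.03 (adjusted p = 0.0453, 13.5% of all genes). In the atlas 4 of 15 were called rhythmic (41.4% of all genes), and their peaks lay more than 2 h from that of Atp10a, a window that held 13.7% of all called genes. Among them were Gabra5, a GABA receptor subunit (0.36, peak at ZT 0.45), Nipa1, a magnesium transporter (0.12, ZT 11.6), and Ube3a (0.07, ZT 19.3, adjusted p = 0.0466). The median swing was 0.10, against 0.14 over all genes and 0.47 for Atp10a.

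Of the 23 core clock genes other than Per2, 20 were called rhythmic (41.4% of all genes), with a median swing of 0.38 on the log2 scale. Of these, 8 had a peak within 2 h of that of Atp10a, against 13.7% of all called genes. At ZT6, 12 were higher and 1 lower on 11:11 (7.49% and 5.15% of all genes), and in the contrast between the sets 5 were higher and 1 lower (2.74% and 2.58%). Their median light cycle value was 0.12 within calorimetry and 0.02 in the wheel set, next to 0.50 and 0.05 for Atp10a. In the wheel set 3 of the 23 were called higher on 11:11 and 0 lower, against 0.069% of all genes called.

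The pattern of Atp10a over the 16 means of sex and time in the atlas was most like that of Per1, a core clock gene (Pearson r = 0.93 over the 16 means of log2 CPM). Fmo2, a flavin monooxygenase (0.86), Junb, an AP-1 transcription factor (0.86), Cep76, a centrosomal protein (0.85), and Mknk2, a kinase of the translation factor eIF4E (0.85), followed. Per2 ranked 76th of 13092 genes, with r = 0.75. Over the 32 group means at ZT6 the most alike were Xdh, an enzyme of purine breakdown (0.87), Plin4, a lipid droplet protein (0.85), Paqr5, a membrane progestin receptor (0.85), Usp54, a protein of the ubiquitin protease family (0.84), and Mertk, a receptor for the uptake of cell debris (0.83). Per2 ranked 9th there of 13016, with r = 0.80, while Per1 ranked 268th, with r = 0.52. The points of each of these values come from one table and share its scaling, and the genes were picked for their likeness.

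The most alike genes at ZT6 differed widely in size. In calorimetry, 11:11 minus 12:12 was 2.52 ± 0.24 on the log2 scale for Plin4, 0.69 ± 0.10 for Xdh, 0.44 ± 0.10 for Paqr5, 0.36 ± 0.05 for Mertk and 0.29 ± 0.04 for Usp54. In the wheel set the same values were -0.13 ± 0.24, 0.02 ± 0.10, 0.13 ± 0.10, 0.05 ± 0.05 and 0.05 ± 0.04. In the atlas their fitted peaks ran from ZT 13.5 (Xdh) to ZT 16.7 (Mertk), around the ZT 15.96 of Atp10a.

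Libraries of one group also differed in Atp10a, and at ZT6 those differences went with Per2, among many other genes. After the group means were removed, Atp10a and Per2 had r = 0.65 over the 63 wheel libraries (rho = 0.65, adjusted p = 6e-05 for both, two-sided permutation within groups, adjusted over 6 relations, from the smallest p that 100000 resamples can give, 1e-05). In calorimetry r was 0.38 (p = 0.02, adjusted p = 0.04, rho = 0.36, adjusted p = 0.034, permutation, n = 63). In the atlas r was 0.03 (rho = 0.06, adjusted p = 0.81 and 0.58, permutation, n = 92). Without the 2 libraries farthest from the median of Per2, r was 0.61, 0.32 and 0.08. The difference between these correlations was not tested. In the wheel set the deviations also went with the replicate number of the labels, which the permutation does not allow for: Per2 lay above its group mean in 26 of 32 libraries numbered 1 or 2 and in 7 of 31 numbered 3 or 4, and Atp10a in 20 and 10. With the means of each number within each sex removed from both genes (a replicate block), r was 0.63 in the wheel set, 0.32 in calorimetry and 0.02 in the atlas.

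**Figure D5:**
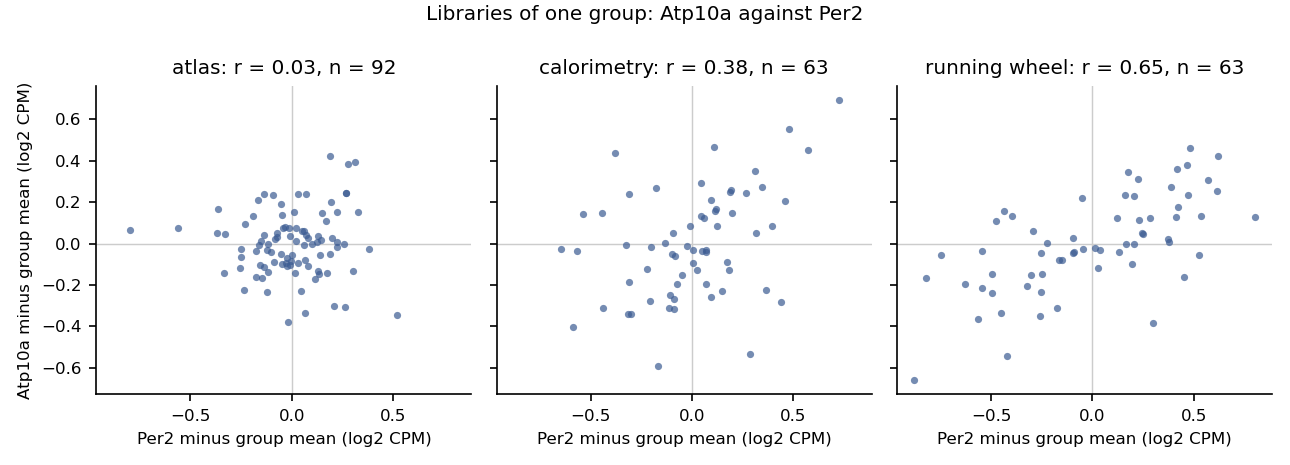
Atp10a against Per2, each as the log2 CPM of a library minus the mean of its group, in the atlas (92 libraries), calorimetry (63) and wheel (63). Each point is a library. The cloud rises from left to right in the wheel set (r = 0.65), less so in calorimetry (0.38) and not in the atlas (0.03).

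Over the same atlas deviations the genes closest to Atp10a were Xdh (r = 0.57), Plin4 (0.54), Mertk (0.48), F13a1, the A chain of coagulation factor XIII (0.48), and Ccdc141 (0.47), while Per2 ranked 5384th of 13092. Xdh, Plin4 and Mertk were thus near Atp10a both between the ZT6 groups and among libraries of one atlas group. Over the ZT6 deviations, a list outside the rule for named genes and chosen after its values were seen, Mertk (0.76) and Rin2 (0.72) stood highest. The astrocyte gene Gjb6 (0.67) followed. Per2 ranked 69th of 13016 there (r = 0.51 over both sets), and 87 genes had r over 0.5.

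Endothelial markers were measured beside Atp10a, since brain endothelium is known to express it. All 23 were detected and none was at 0. Their summed level was 503 ± 16.1 CPM at ZT6 and 537 ± 17.7 CPM at ZT15 in the atlas, and in calorimetry 653 ± 47.9 CPM on 11:11 (567 through 653 to 755) and 607 ± 66.8 CPM on 12:12 (435 through 612 to 742). Of the 23, 21 were called rhythmic (41.4% of all genes), with a median swing of 0.21 on the log2 scale, and 4 peaked within 2 h of Atp10a (13.7% of all called genes). Those 4 included Mfsd2a, a lysolipid transporter of the blood-brain barrier (0.57, peak at ZT 16.8), and Slc2a1, its glucose transporter (0.44, peak at ZT 14.1). Cldn5, a tight junction protein, swung by as much with its peak at ZT 23.5.

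Within calorimetry 8 of the 23 endothelial genes were higher and 2 lower on 11:11 (10.4% and 9.13% of all genes). Mfsd2a was higher by 0.47 ± 0.09 (adjusted p = 3.17e-05, edgeR) and Slc2a1 by 0.37 ± 0.06 (adjusted p = 6.98e-06), while Tie1, an endothelial receptor, was lower at -0.19 ± 0.05. In calorimetry males 11 of the 23 were higher and 0 lower (7.18% and 6.33% of all genes), with a median of 0.18, and in females 2 were higher and 3 lower (6.69% and 5.62%, 12.3% in all), with a median of -0.01. For the contrast of males minus females over both sets 7 were called, each higher in males (2.63% of all genes were higher and 2.91% lower, 5.54% in all), whereas Atp10a was at 0.01 in it. Among wheel libraries 0 of 23 were called by edgeR, DESeq2 or voom, with 2 at an unadjusted p under 0.05 in edgeR, and 0.069% of all genes were called. Atp10a deviations within groups went with the endothelial sum in calorimetry (r = 0.65, adjusted p = 0.00021, rho = 0.61, permutation, n = 63, and r = 0.57 without the 2 farthest libraries). In the wheel set r was 0.26 (p = 0.08, adjusted p = 0.12, rho = 0.27, permutation, n = 63, and 0.20 without the farthest), and in the atlas 0.15 (adjusted p = 0.14, rho = 0.13, permutation, n = 92).

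Other cell markers also moved with the light cycle in calorimetry. Blood genes, mainly of red cells, summed to 117 ± 54.9 CPM on 11:11 (44.3 through 93.6 to 281) and to 173 ± 80.6 CPM on 12:12 (68.6 through 168 to 378), and 4 of the 7 tested were called lower (9.13% of all genes), with a median of -0.46 on the log2 scale. They were 3 globin genes (Hba-a1, Hbb-bs and Hbb-bt) and S100a8, a gene of neutrophils. The sum of the blood list was 72.8 ± 18.7 and 77.7 ± 29.02 CPM in the wheel set. The 10 astrocyte genes summed to 7587 ± 792 CPM on 11:11 and 7213 ± 1104 CPM on 12:12 in calorimetry, and 4 of them were called higher (10.4% of all genes): Fgfr3, Gja1, Gjb6 and Slc1a3. By sex, 6 astrocyte genes were higher in males, these 4 among them, and 3 were lower in females (Aqp4, Gfap and S100b). No member of either list was at 0 over the table. Of 10 oligodendrocyte genes 3 were higher and 1 lower in calorimetry, and of 7 oligodendrocyte precursor genes 3 were higher and 0 lower. Of 10 microglia genes 2 were higher and 0 lower, with 5 higher in males (7.18% of all genes) and 5 lower in females (5.62%). Of 10 inhibitory neuron genes 0 were called (19.6% of all genes). The part of any cell type's share in the Atp10a results was not tested, and in bulk tissue more cells of a type and more RNA per cell cannot be told apart.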

How the data were processed

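Counts per gene were deposited by the authors as 1 table for the atlas (92 libraries) and 1 for ZT6 (126 libraries). The build was mm10 and the tools named were STAR, SAMtools, limma and Trim Galore, per the submitters' processing notes; how reads were counted, and by which strand, is not given in the sources used here. Per the labels' protocols, libraries were directional. Of 55487 identifiers, 55227 matched GENCODE vM21. 1 labelled WT/TG sample was not analysed here.

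Genes were filtered by edgeR 4.0.16 (filterByExpr) and scaled by TMM. 17193 atlas and 18841 ZT6 genes were tested by quasi-likelihood with Benjamini-Hochberg adjustment (threshold 0.05): the atlas with 24 h terms and sex, ZT6 with 1 mean per group. The fits were tested on simulated data. Log2 CPM used a prior count of 2. Counting error is the only error that depth sets. Library pairs within a group differed by more than sampling noise in every case.

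Alternatives were DESeq2 1.42.0, limma 3.58.1 (voom), RLE scaling, no filter, the length slope, a replicate block, subsets and libraries left out; removal of the length slope, or of the means of each replicate number, from the correlations was added after seeing the data. Replicate numbers were not treated as pairs. Members and lists were chosen with earlier results of these data known. Named genes were list members called or with the smallest light cycle p, and the 5 most alike by Pearson r in each of 3 rankings.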

Additional observations from a re-analysis of the deposited data

Results flagged for a closer look

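A library stood apart from the other 3 of its group in Atp10a in 2 groups. Among calorimetry WT/WT males on 12:12, replicate 1 was at 16.86 CPM and the others at 9.451 to 10.5 CPM. Among wheel WT/WT males on 12:12, replicate 2 was at 16.5 CPM and the others at 14.77 to 14.99 CPM. Per2 had such a library in 3 groups: atlas females at ZT6, replicate 3 (24.15 CPM against 17.89 to 19.48), wheel WT/WT females on 12:12, replicate 1 (27.98 against 18.71 to 19.65), and wheel WT/WT males on 12:12, replicate 2 (44.65 against 35.67 to 36.82). The last is the library that also stood apart in Atp10a. In all 5 of 92 examinations (46 groups for each of the 2 genes) picked out a library, and chance picks about 1 in 20.

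The light cycle effect differed between calorimetry and wheel by 0.4484 on the log2 scale for Atp10a and by 0.9024 for Per2, and between males and females by -0.487 for Per2, each by the test of the difference itself. The Atp10a contrast and the Per2 contrast between the sexes missed the threshold in some fits with a replicate number left out, as given above.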

How the results depend on the processing

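Atp10a values were computed 280 times over 22 results and all alternatives, and 274 were counted as unchanged. A tested contrast counted so if it stayed on its side of the threshold, and a change of sign was disregarded where neither fit passed. A described value counted so if it kept its sign and moved by less than the SD between libraries of a group. That SD is of single libraries and so a loose limit. The contrast between the sets ran from 0.40 to 0.51 with a replicate number left out, and the 12 h component was 0.20 with DESeq2 and 0.21 with the length slope, both past the threshold. The within-group correlation with Per2 in the atlas ran from -0.013 to 0.095 with a replicate number left out.

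Same-numbered libraries had a mean correlation of 0.015 at ZT6 and 0.005 in the atlas, and 47 of 126 and 18 of 92 correlated best with their own number. The labels do not tie a number to a shared litter, batch or day, so the numbers were not treated as pairs. With the replicate block, Atp10a was at 0.28 for the light cycle, 0.44 for its contrast between the sets (adjusted p = 0.00122, edgeR) and 0.47 for the swing over the day, and no Atp10a call changed. With the block 2460 genes were called for the light cycle, 1022 for its contrast between the sets and 6993 for the rhythm.

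Counts of genes called moved more. With the length slope they were 922 (light cycle), 4545 (set), 2074 (sex at ZT6), 481 (light cycle by set) and 30 (sex by rhythm). DESeq2 called 26 for sex by rhythm, 6 for WT/TG and 2 for HET/WT by light cycle, and voom called 5 for sex by rhythm and 4 for HET/TG minus HET/WT. Females and males alone gave 3215 and 4305 for the rhythm and 23 and 137 for the 12 h component. The wheel set alone gave 36 for the light cycle and 5 for HET/WT, and calorimetry alone 5 for HET/WT and 1 for WT/TG. With a replicate number left out, counts ran from 998 to 1815 (light cycle), 298 to 830 (light cycle by set), 322 to 895 (light cycle by sex), 91 to 284 (12 h component), 0 to 22 (sex by rhythm), 4 to 5 (HET/WT), and 0 to 1 each (HET/WT by set and by sex). These fits used fewer libraries. Counts of Atp10a as low as 85 in a library limit single values to a counting SD of 10.8%.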
